A study of Mus musculus with 24 samples.

Results

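The receptor α chain that joins TRAV11 to TRAJ18 was followed, with its variants, through 24 tumors of 12 mice. Its members were all productive TCRα sequences with at least 2 counts that were assigned the V segment TRAV11 (or its near copy TRAV11D) or the J segment TRAJ18. They made up 1979 of 55689 retained TCRα rows, of which 305 joined TRAV11 to TRAJ18, 238 joined TRAV11 to another J segment and 1436 joined TRAJ18 to another V segment. Before the count minimum the same rule held 7686 productive rows. No row carried the name TRAV11D, so sequences of the TRAV11 copies, which RefSeq lists as Trav11, Trav11d and Trav11n, could not be told apart, and 2 of the 167 V and J segments named in the tables were measured.

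Natural killer T (NKT) cells are T cells that recognize lipids presented by CD1d instead of peptides presented by classical MHC molecules. In mice their invariant form carries an α chain in which TRAV11 is joined to TRAJ18 with nearly no variation in the third complementarity determining region (CDR3), paired with a β chain that uses a small set of V segments, mainly TRBV13-2, TRBV29 and TRBV1. These cells leave the thymus with an effector program and release cytokines soon after stimulation, and they have been studied in mouse tumors for both activating and regulatory roles.

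The tumors grew from CT26 colon carcinoma cells (genotype label CT26.CL25), which were injected under the skin of both flanks of female BALB/c mice, and RNA of each whole tumor was used for TCRα and TCRβ libraries. In the time-matched group (mice 6, 12 and 14) both tumors were taken on day 13, without treatment. In the time-separated group (mice 4, 17 and 19) one tumor was removed by surgery and the other was taken 11 days later. By the paper's figure legends neither was taken on day 13. Comparisons with the time-matched group therefore also compare tumors of other ages, and mice with and without surgery. The low dose (mice 3, 11 and 20) and high dose (mice 7, 10 and 16) groups had the same surgery and interval and received decitabine (DAC), an inhibitor of DNA methyltransferases, at 0.5 and 2 mg/kg on 5 days in a row. Dosing began 3 days after the surgery, so the tumor removed first had not been exposed to the drug. The time-separated group was the untreated control for both doses. Each tumor has a number in the labels, which do not say which was taken first, so tumor 1 and tumor 2 below are names only.

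Retained TCRα libraries held between 26623 and 846655 counts (median 159256). The smallest was tumor 2 of mouse 7, and tumor 2 of mouse 19 stood apart in having no TRAV11-TRAJ18 sequence at all, so results that rest on mouse 19 are given with and without it. A share of counts in RNA from a whole tumor cannot tell fewer cells of a type from less receptor RNA per cell, and α and β chains were read apart from each other. Receptor libraries hold no other transcripts, so NKT cells could be recognized only by their receptor sequence.

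The invariant CDR3 was taken as the TRAV11-TRAJ18 amino acid sequence found in the most mice. Written without its first cysteine and last phenylalanine, which anchor the loop, it read VVGDRGSALGRLH, and with them it had 15 residues. It was found in 12 of 12 mice and in 23 of 24 tumors with 12932 counts, and it was spelled by 17 different nucleotide sequences. The 4 below held 95.5% of its counts and are shown because they differ only in the glycine codon 4, in capitals, which lies near the join of V and J segment. Germline sequences of the segments were not used here, so germline bases and bases added at the join were not separated.
Encoding 1: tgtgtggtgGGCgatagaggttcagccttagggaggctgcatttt
Encoding 2: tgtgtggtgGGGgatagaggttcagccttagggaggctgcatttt
Encoding 3: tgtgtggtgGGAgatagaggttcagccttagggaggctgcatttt
Encoding 4: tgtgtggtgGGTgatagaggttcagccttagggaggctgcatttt

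All 4 possible glycine codons were thus in use. Encoding 1 was found in 12 mice and 22 tumors with 6013 counts, and encoding 2 in 12 mice and 21 tumors with 2872 counts. Encoding 3 (2060 counts) and encoding 4 (1405 counts) were each found in 10 mice, in 18 and 17 tumors. Relative to encoding 1, with bases counted from 1 at the first base of the cysteine codon, the others differed by C12G, C12A and C12T. All 4 were present together in 13 tumors. Encoding 1 was the largest of the 4 in 17 of the 23 tumors, encoding 2 in 4 and encoding 3 in 2, and encoding 4 in 0.

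The share of the invariant counts in encoding 1 had a median of 42.9% over tumors and ranged from 0% to 75.1%. For encoding 2 the median was 21.7% (0% to 93.1%), for encoding 3 it was 14.8% (0% to 72.5%) and for encoding 4 it was 9.23% (0% to 24.5%). The maxima of encodings 2 and 3 came from tumors with few counts: encoding 2 held 93.1% of 72 invariant counts in tumor 2 of mouse 3, and encoding 3 held 72.5% of 40 counts in tumor 2 of mouse 10. In tumor 1 of the same mice, with 221 and 1262 invariant counts, the same encodings held 21.3% and 15.2%. The 2 tumors of a mouse could therefore carry the same amino acid chain in different mixtures of nucleotide sequences.

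**Figure D1:**
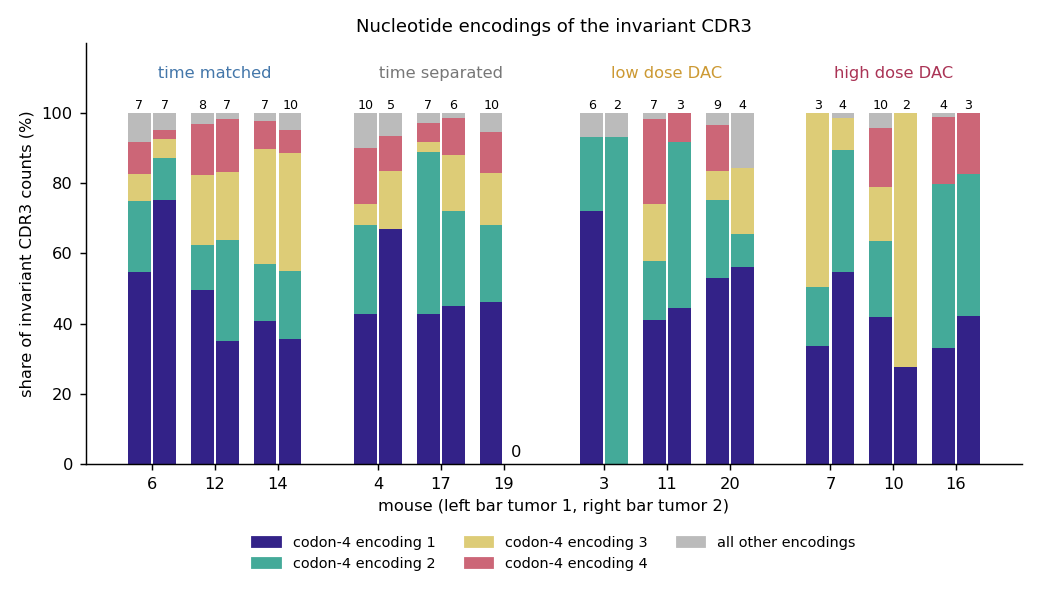
Share of the invariant CDR3 counts (vertical axis, percent) held by encodings 1 to 4 and by all other encodings in each tumor, with mice on the horizontal axis in their groups and tumor 1 left of tumor 2. The number above a bar is how many encodings the tumor had, from 2 to 10, and the 0 marks tumor 2 of mouse 19, which had no invariant sequence.

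A tumor with the invariant chain held a median of 7 encodings, from 2 to 10. In the time-matched mice 19 of the 27 encodings of a mouse, counted per mouse, were found in both of its tumors (70.4%), and in the time-separated mice with and without DAC 26 of 69 were (37.7%), or 26 of 59 without mouse 19 (44.1%). This difference was not tested, and the time-matched libraries held 176171 to 846655 counts against 26623 to 236622 in the others. At an equal depth of 26623 counts per library, time-matched tumors held 5.64 ± 1.05 encodings (SD, n = 3 mice) and the tumors of all time-separated mice 4.34 ± 0.770 (n = 9). On the log2 scale the time-separated mice were lower by a mean difference of -0.53, which did not pass an exact two-sided permutation test (p = 0.0773, Benjamini-Hochberg adjusted p = 0.695 over 9 tests). Without mouse 19 the difference was -0.41 with an exact permutation p of 0.0424 before adjustment. Equal depth evened the library totals but not the invariant counts, which were fewer in tumors with a lower share. The difference in encodings was therefore not separated from the share of the chain.

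By the number of encodings alone the invariant chain did not stand apart. Among the 62 TCRα clonotypes (same CDR3 amino acids, V and J) whose counts were within 2-fold of the invariant chain's, itself included, the median was 12 encodings, and 9 others had at least as many. The evenness differed more. The largest encoding held 46.5% of the invariant counts, and in the other 61 clonotypes it held a median of 99.2% (45.5% to 99.8%). The effective number of encodings (the inverse of the sum of squared shares) was 3.30 for the invariant chain and at most 2.59 among the 61, of which 32 were found in 1 mouse. Of 35452 TCRα clonotypes 7 were found in all 12 mice, and in the 6 others the effective number ranged from 1.43 to 5.34 (median 2.07). These are descriptions across clonotypes, with no test.

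The remaining 13 encodings held few counts each, and each carried a change after codon 4. The one shown here was found in 11 mice and differs from encoding 1 by G33T in the glycine codon 11, which is in capitals beside codon 4.
Encoding with a silent change: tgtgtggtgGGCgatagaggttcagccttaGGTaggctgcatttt

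The change G33T was seen in 7 encodings, in 12 mice and 18 tumors, with 297 counts. In each of the 51 cases a larger TRAV11-TRAJ18 sequence that differed by 1 base was in the same tumor, 2.5 to 84 times larger (median 37.3). The same change was present in TRAJ18 chains with other V segments. Over the last 27 bases, the end that most TRAJ18 counts shared, G33T alone accounted for 2.23% of TRAV11-TRAJ18 counts in 18 tumors and for 2.62% of the counts of TRAJ18 with another V in 23 tumors. An encoding with T15C, which changes the aspartate codon 5 without changing the residue, had 208 counts in 5 mice.

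Besides the invariant sequence, TRAV11-TRAJ18 chains held 46 other CDR3s with 1755 of 14687 counts (11.9%). Of these 42 had 15 residues, 32 differed from the invariant by 1 residue, and 28 were found in 1 mouse. Their share of TRAV11-TRAJ18 counts ran from 0% in 2 tumors to 25.8% (median 9.50%). It was 4.73% to 25.0% in the 6 time-matched tumors and 0% to 25.8% in the 17 others with the chain, so the groups overlapped.

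Position 4, the glycine at the join (residues counted from 1 at the cysteine), held the most counts among variants with 1 change. There 8 other residues (A, C, D, F, L, R, S and V) were found with 1006 counts, which was 57.3% of all variant counts, and position 5 followed with 5 residues and 296 counts. Positions 8, 9 and 13 had 0 variants with 1 change at this depth. The main sequences of the 2 most abundant variants and of a shorter one are shown, with the changed codon in capitals, because they were read in several tumors with more counts than most of the others.
G4A: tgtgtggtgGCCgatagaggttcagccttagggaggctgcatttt
G4V: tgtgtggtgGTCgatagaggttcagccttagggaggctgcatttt
Shorter form: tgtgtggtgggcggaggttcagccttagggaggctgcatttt

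G4A, with alanine at the join (loop VVADRGSALGRLH), was found in 10 mice and 14 tumors with 575 counts and 5 nucleotide sequences. Its share of TRAV11-TRAJ18 counts was lowest, among the 14 tumors that held it, at 1.44% in tumor 2 of mouse 17 and highest at 24.5% in tumor 2 of mouse 16, where it had 40 of 163 counts. G4V (loop VVVDRGSALGRLH) was found in 8 mice and 13 tumors with 243 counts and 6 sequences, and its highest share was 23.1% (12 of 52 counts) in tumor 2 of mouse 10. Counting each nucleotide sequence once per tumor, in 16 of 17 and 29 of 30 cases a larger sequence 1 base away was in the same tumor. Each alanine or valine codon lies 1 base from a glycine codon, so such a neighbour does not show how a variant arose. For G4A a neighbour that spelled another CDR3 was as little as 1.03 times larger (35 against 34 counts in tumor 1 of mouse 4). For G4V the smallest ratio, 1.5, was 3 against 2 counts.

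The other variants found in the most mice were rare in every tumor. G7A (loop VVGDRASALGRLH) was found in 9 mice with 35 counts, R12M in 6 with 26, V2L in 6 with 18, L10V in 5 with 24, V3G in 4 with 11, D5E in 4 with 11, F15V in 4 with 8 and V2G in 3 with 13. Each sequence of these 8 lay 1 base from a larger one in the same tumor, and for G7A that one was 32.5 to 379.5 times larger. The base change behind the main G7A sequence, G20C, alone made up 0.272% of TRAV11-TRAJ18 counts and 0.366% of the counts of TRAJ18 with another V. For R12M (G35T) these shares were 0.150% and 0.172%, and for L10V (T28G) 0.123% and 0.127%. These 3 base changes were read at similar shares where TRAJ18 was joined to other V segments, but others were not: G31T made up 0.0136% against 0.338%, and G32T 0.0545% against 0.152%. Over all variants 145 of 163 sequences, counted per tumor, lay 1 base from a larger one, and for 118 it was at least 10 times larger.

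Other variants were confined to 1 or 2 mice with more counts, and these were picked after their values were seen. The shorter form, with 14 residues (loop VVGGGSALGRLH), had 80 counts in tumor 1 of mouse 6, 99 in tumor 1 and 25 in tumor 2 of mouse 14. D5V (loop VVGVRGSALGRLH) had 22 and 161 counts in the tumors of mouse 14 and was not read elsewhere. G4F had 97 counts in tumor 1 of mouse 16 and D5A 74 in tumor 1 of mouse 4. With G4A and G4V these are the 6 variants with over 50 counts.

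The CDR3 lengths of the 3 pairings are given as descriptions, with no test. Of the distinct TRAV11-TRAJ18 nucleotide sequences, counted per tumor, 297 of 304 encoded 15 residues (97.7%), with the rest at 14 and 16. Copies that differ by 1 base keep the length, so the same chain may be counted more than once. With sequences 1 base from one at least 100 times larger left out, 97.1% of 243 had 15 residues. Over all TCRα sequences 19.5% had 15 residues and the lengths ran from 6 to 26. TRAJ18 with another V ran from 11 to 20 residues and had 25.0% at 15. TRAV11 with another J had 71.1% at 15, which rested on mouse 20: its sequences had 96% at 15, and those of the other 11 mice 27.1%.

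**Figure D2:**
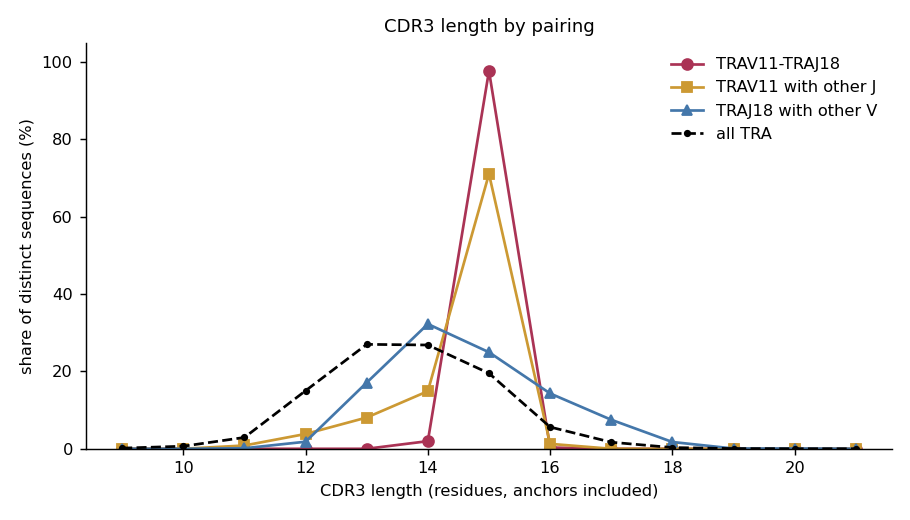
Share of distinct nucleotide sequences (vertical axis, percent) by CDR3 length in residues, anchors included (horizontal axis), for the 3 pairings and for all TCRα sequences. TRAV11-TRAJ18 forms a single peak of 97.7% at 15 residues, and TRAJ18 with another V spreads over 11 to 20.

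Productive sequences dominated the TRAV11-TRAJ18 chains. Out-of-frame sequences and those with stop codons, at the same minimum of 2 counts, made up 2.69% of TRAV11-TRAJ18 counts, 8.81% with TRAV11 and another J, 12.7% with TRAJ18 and another V, and 12.9% over all TCRα. By mouse the share in TRAV11-TRAJ18 chains was 0.587% to 4.39% and over all TCRα 8.56% to 25.6%. It was lower in TRAV11-TRAJ18 in 12 of 12 mice, and the ranges did not overlap.

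TRAV11 was joined to TRAJ18 far more often than other V segments were. Pooled over tumors, 304 of 539 distinct TRAV11 sequences used TRAJ18 (56.4%). Among the 62 V segments with at least 50 sequences the next were TRAV14-2 with 13.9%, TRAV1 with 8.14% and TRAV10 with 6.17%. By mouse TRAJ18 took between 16.7% and 98.2% of TRAV11 sequences (median 82.6%) and between 0.808% and 4.31% of the sequences of all other V segments (median 2.59%). The mean log2 ratio was 4.78, with TRAV11 higher in 12 of 12 mice, and an exact two-sided sign-flip permutation test, chosen after the values were seen, gave p = 0.000488, the smallest that 12 mice allow. By counts instead of sequences the ratio was higher in 12 of 12 mice too, but in mouse 20 only 4.91% against 4.42%.

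**Figure D3:**
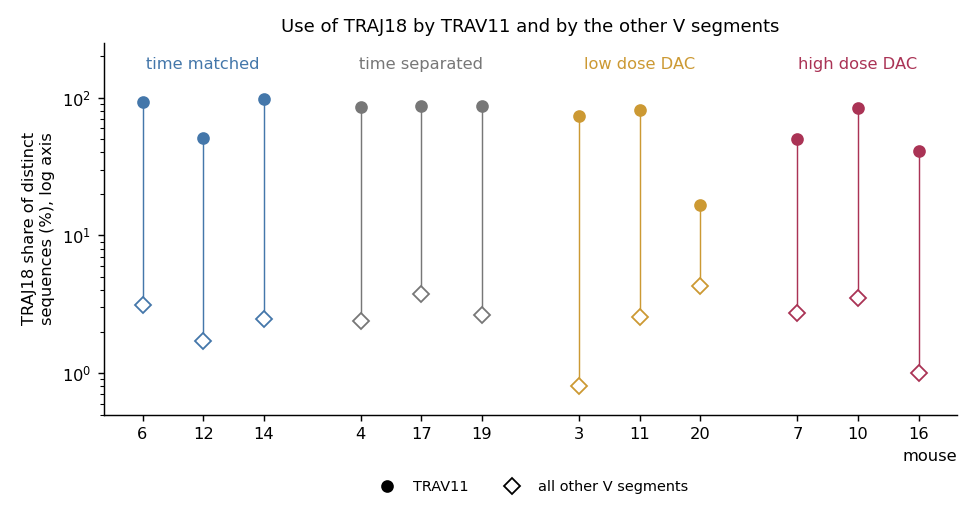
Share of distinct sequences that use TRAJ18 (vertical axis, percent, logarithmic) among TRAV11 sequences (filled circles) and among the sequences of all other V segments (open diamonds) in each mouse. The circle lies above the diamond in all 12 mice, and mouse 20 has the smallest gap, at 16.7% against 4.31%.

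In every mouse the TRAV11-TRAJ18 chain was a minor part of the TCRα counts. Its share per tumor had a median of 0.292% and a maximum of 1.83%. Among time-matched mice, tumors 1 and 2 of mouse 6 held 0.737% and 0.531%. Those of mouse 12 held 0.103% and 0.0769%, and those of mouse 14 held 0.397% and 0.693%. The tumors of a mouse lay close together here, and mouse 12 lay below the other two in both. In that mouse the 10 largest clonotypes held 81.6% and 82.8% of the counts, against 35.3% to 62.2% in the tumors of mice 6 and 14.

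In the time-separated group mouse 4 had 0.383% and 0.261%, and mouse 17 had 0.338% and 0.298%. In mouse 19 tumor 1 held 1.83% (1591 of 87159 counts, 95% Clopper-Pearson interval 1.74% to 1.92%), the highest value of the 24, and tumor 2 held 0 of 87179 counts, which allows a share of up to 0.00344% (3 counts). Taken at that limit, tumor 1 was 530-fold higher. The 95% Clopper-Pearson interval of tumor 2 reached 0.00423%, at which the fold would be smaller. Tumor 2 of mouse 19 also had no TRAV11-TRAJ18 sequence with 1 count, whereas tumor 1 had 158, and it held 7 CDR3s that joined TRAJ18 to another V against 57 in tumor 1. The intervals and limits here cover counting error only.

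With the low dose, mouse 3 had 0.338% and 0.165% in tumors 1 and 2, mouse 11 had 0.286% and 0.0467%, and mouse 20 had 0.779% and 0.0443%. With the high dose, mouse 7 had 0.0892% and 0.530%, mouse 10 had 0.602% and 0.0220%, and mouse 16 had 0.235% and 0.121%. Tumor 2 was below tumor 1 in 5 of these 6 mice, with mouse 7 the exception, where tumor 2 had 141 of 26623 counts. The values of the 4 groups overlapped.

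**Figure D4:**
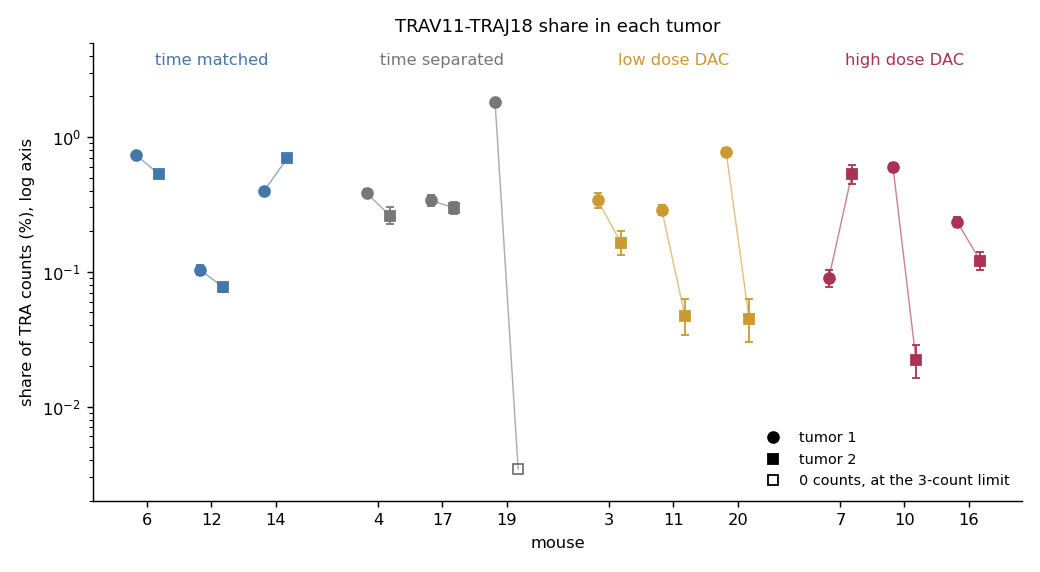
TRAV11-TRAJ18 share of TCRα counts (vertical axis, percent, logarithmic) in tumor 1 (circles) and tumor 2 (squares) of each mouse, by group, with 95% Clopper-Pearson intervals. The open square is tumor 2 of mouse 19, with 0 counts, drawn at its limit of 0.00344%, and the other values run from 0.0220% to 1.83%.

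With all mice and log2 shares averaged, group means did not differ beyond the spread between mice. As the mean log2 share of a mouse's tumors, averaged over mice and turned back to percent, the time-matched group stood at 0.308%, the low dose group at 0.173%, the high dose group at 0.162% and the time-separated group at 0.148%. The SD between the 3 mice was 1.55, 0.52, 0.46 and 1.90 log2 units in that order, and each step between neighbours in that order (0.84, 0.093 and 0.13 log2 units) was smaller than the larger SD of the pair. The time-separated group was below the time-matched group by a mean difference of -1.06 log2 units (exact permutation p = 0.5, adjusted p = 1, where 3 against 3 mice cannot go below 0.1). All 9 time-separated mice against the time-matched gave -0.94 (exact permutation p = 0.245, adjusted p = 0.736). Without mouse 19 these became 0.042 and -0.65, and with the log2 of the mean share, mouse 19 kept, the first was 0.53 (exact permutation p = 0.8), so its direction rested on that mouse and on the averaging. With the 10 largest clonotypes left out the first was -2.33 (exact permutation p = 0.3). The second was also -0.43 without mouse 6, -0.56 without mouse 14 and -1.83 without mouse 12 (exact permutation p = 0.0545). With the log2 of the mean share it was -0.012 (exact permutation p = 0.982), and with the 10 largest clonotypes left out -1.58.

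Decitabine was compared with no drug among the time-separated mice. Each value is a mean over both tumors of a mouse, of which 1 was removed before any dose and cannot be named from the labels, so these comparisons do not isolate the treated tumor. The low dose group differed from the time-separated group by 0.22 log2 units and the high dose group by 0.13 (exact permutation p = 1 for both). With the 10 largest clonotypes left out they were 1.08 and 1.19 (exact permutation p = 0.9 and 1). With the log2 of the mean share and all mice kept, both turned to -0.81 (exact permutation p = 0.4 for the low and 0.1 for the high dose, the latter the smallest that 3 against 3 mice allow). Without mouse 19, with log2 shares averaged as before, these were -0.88 and -0.97, each with an exact permutation p of 0.2, the time-separated group of mice 4 and 17 then stood at 0.317% (SD 0.0037 log2 units), and both differences were larger than the SDs of the DAC groups. Group membership accounted for 0.892% of the variation between these 9 mice (exact permutation p = 0.989), for 57.1% without mouse 19 (exact permutation p = 0.168) and for 32.0% with the log2 of the mean share (exact permutation p = 0.368). With 3 mice per group these tests had little reach, and they do not show that the groups were alike.

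The absolute log2 ratio of the shares of a mouse's tumors, their gap, was 0.57 ± 0.20 (SD, n = 3) in time-matched mice and 3.16 ± 3.55 (n = 9) in time-separated mice. The 3 time-matched gaps lay between 0.43 and 0.80, and 7 of the 9 others lay above 0.80, while mice 4 (0.55) and 17 (0.18) did not. The difference of 2.59 did not pass the exact permutation test (p = 0.227, adjusted p = 0.736). Without mouse 19 it was 1.53, with the 10 largest clonotypes left out 1.67 and over distinct sequences 0.81.

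The share was lower in tumor 2 than in tumor 1 in 8 of the 9 time-separated mice, a comparison made after the values were seen. Tumor 1 ranged from 0.0892% to 1.83% (median 0.338%) and tumor 2 from 0% to 0.530% (median 0.121%). The mean log2 ratio was -2.59 (exact sign-flip permutation p = 0.0625). It was -1.45 without mouse 19 (exact sign-flip permutation p = 0.125) and -3.23 without mouse 7 (exact sign-flip permutation p = 0.0078). Other pairings moved in the same way: of 122 V-J pairings found in each of the 9 mice, 47 (38.5%) were lower in tumor 2 in at least 8 mice, and the median over the 122 of the mean log2 ratio was -2.49. TRAV11-TRAJ18 was number 57 of the 122 from the lowest, and without mouse 19 it was number 83, at -1.45 against a median of -2.10. The make-up of the libraries moved with it: the 10 largest clonotypes held a median of 41.2% of counts in tumor 1 and 63.7% in tumor 2, more in tumor 2 in 9 of 9 mice, and tumor 2 had fewer retained counts in 7 of 9. With those 10 left out the mean log2 ratio was -1.52, and over distinct sequences instead of counts it was -0.84. Their part in the result was not tested beyond these values.

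Of the 6 other clonotypes found in all 12 mice, 5 joined TRAV7-2 to TRAJ40 and the other TRAV13-1 to TRAJ26, and each was lower in tumor 2 in 7 to 9 of the 9 mice, with mean log2 ratios from -5.30 to -1.55. The invariant CDR3 alone was lower in 8 with a mean of -2.68, and its median log2 ratio of -1.37 was nearer to 0 than those of the 6 others, from -6.11 to -1.65. Without mouse 19 its mean was -1.58 and its median -1.22. The difference between these clonotypes was not tested.

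TRAV11 with another J segment was rarer still in most tumors and was dominated by 1 mouse. It was found in 19 tumors of 12 mice with a median share of 0.0556%, and 5 tumors had 0 counts. Of its 158 CDR3s, 157 were found in 1 mouse (99.4%, against 91.9% over all TCRα clonotypes), and 86 were read in mouse 20. In mouse 20 it held 3.14% of tumor 1 and 23.4% of tumor 2, where many of its 71 CDR3s were near copies of a single expanded TRAJ32 clonotype, shown here beside the most shared one of this pairing.
TRAV11-TRAJ32, mouse 20: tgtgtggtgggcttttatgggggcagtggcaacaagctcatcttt
TRAV11-TRAJ32, in 2 mice: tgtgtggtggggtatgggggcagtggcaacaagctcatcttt

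The first (loop VVGFYGGSGNKLI) held 3738 counts in tumor 1 (2.74%) and 15965 in tumor 2 (22.1%, 95% Clopper-Pearson interval 21.8% to 22.4%), and was the largest TCRα clonotype of tumor 2. It had 16 nucleotide sequences, nearly as many as the invariant CDR3, but the main one held 99.4% of its counts. Of the 99 TRAV11-TRAJ32 sequences of this length in mouse 20, 68 lay 1 base from the main one, and they spelled 52 amino acid CDR3s. One of these, with an alanine in place of a glycine (loop VVGFYAGSGNKLI), had 138 counts in both tumors. The clonotype has the length of the invariant chain and its first 4 residues, but its J segment is another.

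The second (loop VVGYGGSGNKLI, 14 residues) was the only CDR3 of this pairing in more than 1 mouse and had 1434 counts in 2 mice, up to 0.118% in tumor 1 of mouse 12. Mouse 16 had a TRAJ32 chain of 13 residues (loop VVGGGSGNKLI) with up to 0.446% in tumor 1. Mouse 19 had a TRAJ26 chain (loop VVGANNYAQGLT) with 196 counts, 0.225%, in tumor 2, the tumor in which TRAV11-TRAJ18 was at 0. The reason for that 0 was not tested. TRAJ32 accounted for 172 of 235 sequences of the pairing (73.2%), of which 143 were in mouse 20, and it was used in 6 mice. The next, TRAJ6, had 9 sequences in 4 mice. All 9 time-separated against the 3 time-matched mice differed by 0.89 log2 units in this share (exact permutation p = 0.705, adjusted p = 1), and by -0.050 without mouse 20 and -1.16 without mouse 14.

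**Figure D5:**
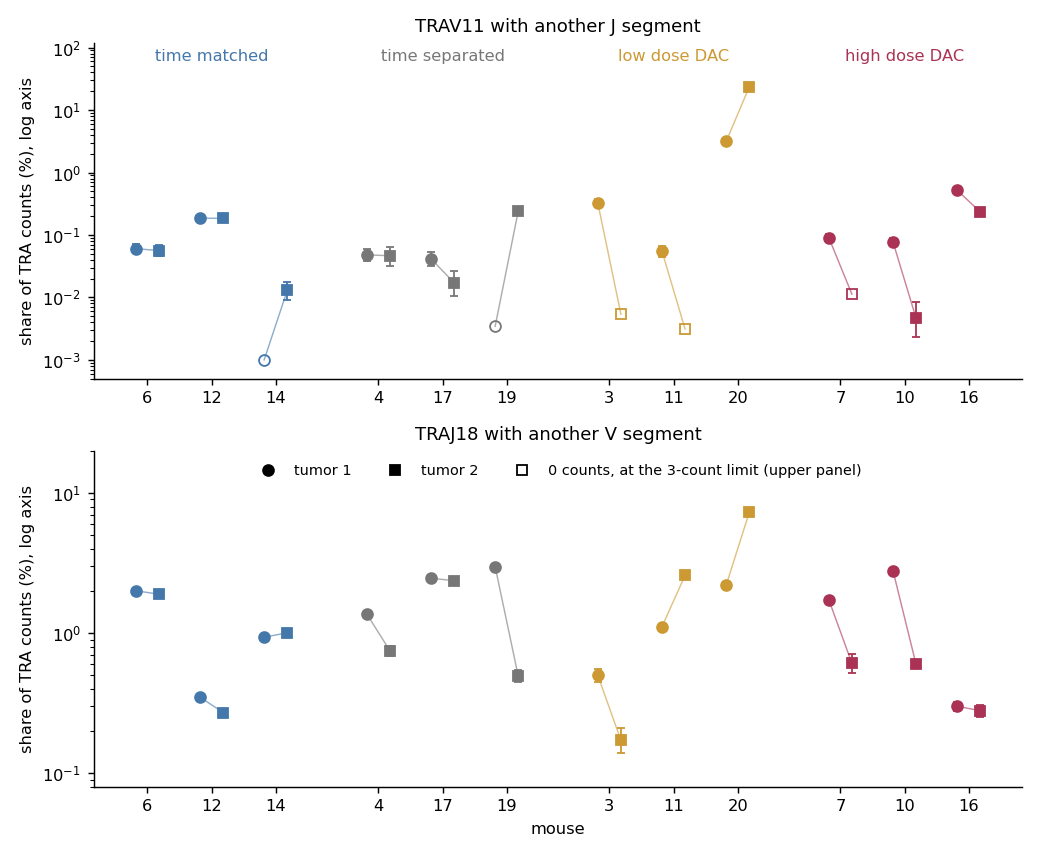
Share of TCRα counts (vertical axes, percent, logarithmic) held by TRAV11 with another J segment (upper panel) and by TRAJ18 with another V segment (lower panel) in tumor 1 (circles) and tumor 2 (squares) of each mouse, with 95% Clopper-Pearson intervals. The upper panel has 5 tumors with 0 counts, drawn open at their 3-count limit, and both panels reach their highest value in tumor 2 of mouse 20, at 23.4% and 7.26%.

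TRAJ18 with another V segment was present in all 24 tumors and exceeded TRAV11-TRAJ18 in each of the 24. Its share had a median of 1.06% and ran from 0.172% in tumor 2 of mouse 3 to 7.26% in tumor 2 of mouse 20. It held 841 CDR3s with 59 V segments, of which 758 were found in 1 mouse (90.1%), close to the 91.9% over all TCRα clonotypes. The V segments with the most sequences were TRAV12-1 with 129, TRAV7-3 with 122 and TRAV7-4 with 95. The last 10 residues of the invariant chain, from arginine to phenylalanine, closed 417 of the 841 CDR3s (49.6%), and the aspartate before them was kept as well in 125 (14.9%). The most shared sequence and the largest one follow.
TRAV14-2-TRAJ18, in 6 mice: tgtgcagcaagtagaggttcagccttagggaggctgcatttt
TRAV12-1-TRAJ18, mouse 20: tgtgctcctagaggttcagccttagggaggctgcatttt

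The first (loop AASRGSALGRLH) had 2751 counts in 11 tumors and 8 nucleotide sequences, up to 0.412% in tumor 1 of mouse 4. Also found in 6 mice were AVRGSALGRLH with TRAV3-3 (232 counts) and ALRRGSALGRLH with TRAV12-1 (248 counts), and in 5 mice AARGSALGRLH with TRAV7-4 (975 counts) and AVSRGSALGRLH with TRAV3-3 (368 counts). These were 13 or 14 residues long, and each lacked the aspartate. The largest (loop APRGSALGRLH) was confined to mouse 20 and held 6.28% of tumor 2, and the next, AANRGSALGRLH with TRAV10, held 2.23% of tumor 2 of mouse 11. A TRAV9-1 chain of 17 residues held 1.99% of tumor 2 of mouse 17. All 9 time-separated against the 3 time-matched mice differed by 0.39 log2 units (exact permutation p = 0.682, adjusted p = 1). The difference was -0.33 without mouse 12, -0.37 without the 10 largest clonotypes, -0.13 over distinct sequences, 0.16 without mouse 20, 0.25 without mouse 17, 0.63 without mouse 3 or mouse 16 and 1.00 without mouse 6. This pairing had a gap within mice of 0.18 ± 0.16 (SD, n = 3) in the time-matched group and 1.31 ± 0.86 (n = 9) in the others, which was not tested.

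No relation between the α chain and its usual β partners passed a test over the 12 mice. The TRBV13-2 share of TCRβ counts per tumor ran from 2.16% to 47.5% (median 10.6%), that of TRBV29 from 0.165% to 13.2% (median 1.56%) and that of TRBV1 from 0.266% to 11.1% (median 1.59%). Over 12 mice and 3 relations, the log2 TRAV11-TRAJ18 share had a Pearson r of -0.38 with TRBV13-2 (permutation p = 0.227, adjusted p = 0.602, Spearman rho -0.45, permutation p = 0.141, adjusted p = 0.419). This rho was -0.65 without mouse 10 (permutation p = 0.0364) and -0.59 with the log2 of the mean share (permutation p = 0.0456), before adjustment. With TRBV29 it was 0.17 (permutation p = 0.602, adjusted p = 0.602, rho 0.26, permutation p = 0.419, adjusted p = 0.419) and with TRBV1 0.17 (permutation p = 0.599, adjusted p = 0.602, rho 0.29, permutation p = 0.367, adjusted p = 0.419). Without the 2 mice farthest from the median TRBV share r was -0.23, -0.034 and 0.12. Groups of 3 mice were too small for an r of their own. The α chain had a median of 0.292% of TCRα counts, far below the TRBV13-2 share of TCRβ counts. These relations could therefore not show which α and β chains were paired.

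The pairing of TRAV1 with TRAJ33, used by the α chain of the other well-known invariant T cells, the MAIT cells, served as a reference. This pairing was taken by segment names alone, with no CDR3 sequence or length required, so it was not limited to MAIT chains. It held 0% in 5 tumors and at most 0.330% (median 0.0210%), with its highest share in tumor 1 of mouse 19 and 0 counts in tumor 2 of that mouse.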

How the data were processed

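TCRα and TCRβ repertoires of 24 tumors of 12 mice were used, with groups from the sample labels. The authors processed reads with the Cogent NGS Immune Profiler v2.0 and deposited 1 count per receptor sequence, not normalized. That software included an analysis by molecular identifier (UMI). The deposited column is named as a read count, and the paper gives the same retained TCRα range, 26623 to 846655, in reads. Whether reads of the same molecule were merged before counting is not settled here. The genome build is not given in the sources used here. Sequences with a stop or frame mark and those under 2 counts were left out, as in the study. Shares were log2 percent of a library's retained counts (26623 to 846655 for TCRα), with 0.5 added to the count and 1 to the total, averaged over the tumors of a mouse.

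Mice were compared with exact two-sided permutation tests, Benjamini-Hochberg adjusted over 9 tests, instead of the study's t-tests, and correlations with 100000 permutations. Named variants were the 10 TRAV11-TRAJ18 CDR3s in the most mice, and of the other pairings the 5 in the most mice and the 3 with the largest share in a tumor. The members and lists were chosen with earlier results of these data known. The alternatives changed the count minimum (1 or 5), depth (20 draws), near copies (1 base from a sequence at least 100 times larger), the variants, the 10 largest clonotypes, distinct sequences, the averaging, the value at 0 and the set of mice. The tests were tested on simulated data. Python 3.11.15, numpy 2.4.6, pandas 2.3.3, scipy 1.17.1 and matplotlib 3.10.9 were used.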

Additional observations from a re-analysis of the deposited data

Results flagged for a closer look

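The 6 tumors of the time-separated group held 1 value far from the rest: the gap from tumor 2 of mouse 19, with 0 TRAV11-TRAJ18 counts, to its nearest neighbour was 0.759 of the group's whole range on the log2 scale. The same tumor set mouse 19 apart among the 9 time-separated mice, where the gap of its mean log2 share was 0.557 of the range. Both values rest on the 0.5 counts that stand for 0. Chance alone gives about 1 such value in 20 groups, and 18 groups were looked at.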

How the results depend on the processing

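Over 14 results and 253 alternatives 230 values kept their direction and their side of an exact or permutation p of 0.05, 20 changed direction and 3 fell under it before adjustment, with Pearson's r counted for correlations. Spearman's rho with TRBV13-2 also fell under it, at -0.65 without mouse 10 (permutation p = 0.0364) and -0.59 with the log2 of the mean share (permutation p = 0.0456). The difference of -1.06 log2 units between time-separated and time-matched mice was 0.53 with the log2 of the mean share and -2.33 with the 10 largest clonotypes left out. It was -0.62 over distinct sequences and -0.63 with a share of 0 set at 3 counts. When a mouse was left out it ranged from -1.95 to 0.042 (highest without mouse 19). The low dose difference of 0.22 was 1.08 with the 10 largest clonotypes left out, -0.025 at equal depth, -0.81 with the log2 of the mean share and -0.22 with a share of 0 set at 3 counts, which was chosen after seeing the data, and ranged from -0.88 to 0.77 when a mouse was left out. The high dose difference of 0.13 was 1.19, -0.11, -0.81 and -0.31 under the same 4 settings and -0.15 over distinct sequences, and ranged from -0.97 to 0.68. For TRAJ18 with another V, 0.39 became -0.37 without the 10 largest clonotypes and -0.13 over distinct sequences, and ranged from -0.33 to 1.00 when a mouse was left out. For TRAV11 with another J, 0.89 was 0.055 without the 10 largest clonotypes and ranged from -1.16 to 2.33 when a mouse was left out. The r with TRBV29 was -0.055 over distinct sequences and that with TRBV1 was -0.089 without the 10 largest clonotypes. When a mouse was left out, r ranged from -0.53 to -0.20 with TRBV13-2, from 0.00030 to 0.28 with TRBV29 and from 0.039 to 0.30 with TRBV1. The difference in encodings of -0.53 was -0.63 with a minimum of 5 counts (exact permutation p = 0.0455) and ranged from -0.68 to -0.41 when a mouse was left out. The mean log2 ratio of tumor 2 to tumor 1 ranged from -3.23 (without mouse 7) to -1.45 (without mouse 19) when a mouse was left out, and was -0.84 over distinct sequences. The cause was not tested in these cases. The TRAJ18 use of TRAV11 against other V segments kept a mean log2 ratio of 4.63 to 5.59. Depth limits the rare variants, since a variant of 2 counts is 0.00751% of the smallest library, and 3 mice per group limit every comparison.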
